A study of Mus musculus with 15 samples.

Results

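The Notch pathway transcripts described here are those of the receptors Notch1, Notch2 and Notch3, the ligands Jag1, Jag2 and Dll1, and the basic helix-loop-helix effectors Hes1, Hes6, Hey1 and Heyl, 10 genes out of 19452 with a probe set of their own symbol. They were taken by name, as the probe sets whose only platform gene symbol was one of these, and each gene had 1 probe set. The cells were C2C12 mouse myoblasts, in a stable line that carries an empty lentivirus vector (LKO1), grown in puromycin and kept proliferating below 70% confluency. Actinomycin D, which blocks transcription, was given at 8 µg/mL for 30 min, and RNA was then collected at once (0 min) or 10, 50, 110 or 230 min later. Each time had 1 Affymetrix Mouse Gene 1.0 ST array in each of 3 replicate time courses, 15 arrays in all. Every array is therefore from cells that had already spent 30 min in the drug, and no untreated cells are included. The question was how fast each mRNA disappears once it is no longer made.

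Notch receptors are single-pass membrane proteins that are cut after they bind a Jagged or Delta-like ligand on a neighbouring cell. The released intracellular domain enters the nucleus, joins the DNA-binding protein Rbpj and a Mastermind coactivator, and switches on target genes, above all the Hes and Hey transcriptional repressors. In the myogenic lineage, Notch signalling is known to hold back differentiation and to keep muscle progenitors in reserve, and Hes1 is known in several mouse tissues for rapid, self-limiting bursts of mRNA.

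Values are linear ratios to the 5th percentile of an array's own probe sets, so 1.00 lies at the dim end of every array, and levels are compared within a gene only. In bulk RNA, a smaller number of cells and less RNA per cell cannot be told apart. Of 25175 probe sets, 12544 were above their array's median at 0 min in at least 2 of 3 time courses and are called expressed. This held for 8 of the 10 genes, in all 3 time courses each, and for Dll1 and Heyl in 0 of 3. The cells carried all 5 of the myoblast markers listed (0 min means between 5.46 and 42.3), and 5 of 6 myotube markers also passed the level filter, with means between 2.79 (Myog) and 12.02 (Acta1). Of the 2 markers of quiescent satellite cells Pax7 passed (mean 2.99) and Calcr did not (1.52). None of the endothelial, blood, epithelial or adipocyte markers did (means between 1.18 and 1.65). The 75th percentile of the arrays lay between 2.89 and 4.63 at 230 min, against 7.80 to 9.81 at 0 min, so that the bulk of the array moved towards the dim end. The lowest at 110 and 230 min were time course 1 at 110 min (3.90) and time course 2 at 230 min (2.89).

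Against this general fall, Hes1 mRNA disappeared fastest of the 10, and Notch1 and Notch2 mRNA fell more steeply than most expressed transcripts. Hey1, Jag1 and Jag2 lay between these and the typical transcript, Hes6 was close to the typical transcript, and Notch3 fell less than most. Dll1 and Heyl stayed near the dim end of the arrays throughout.

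**Figure D1:**
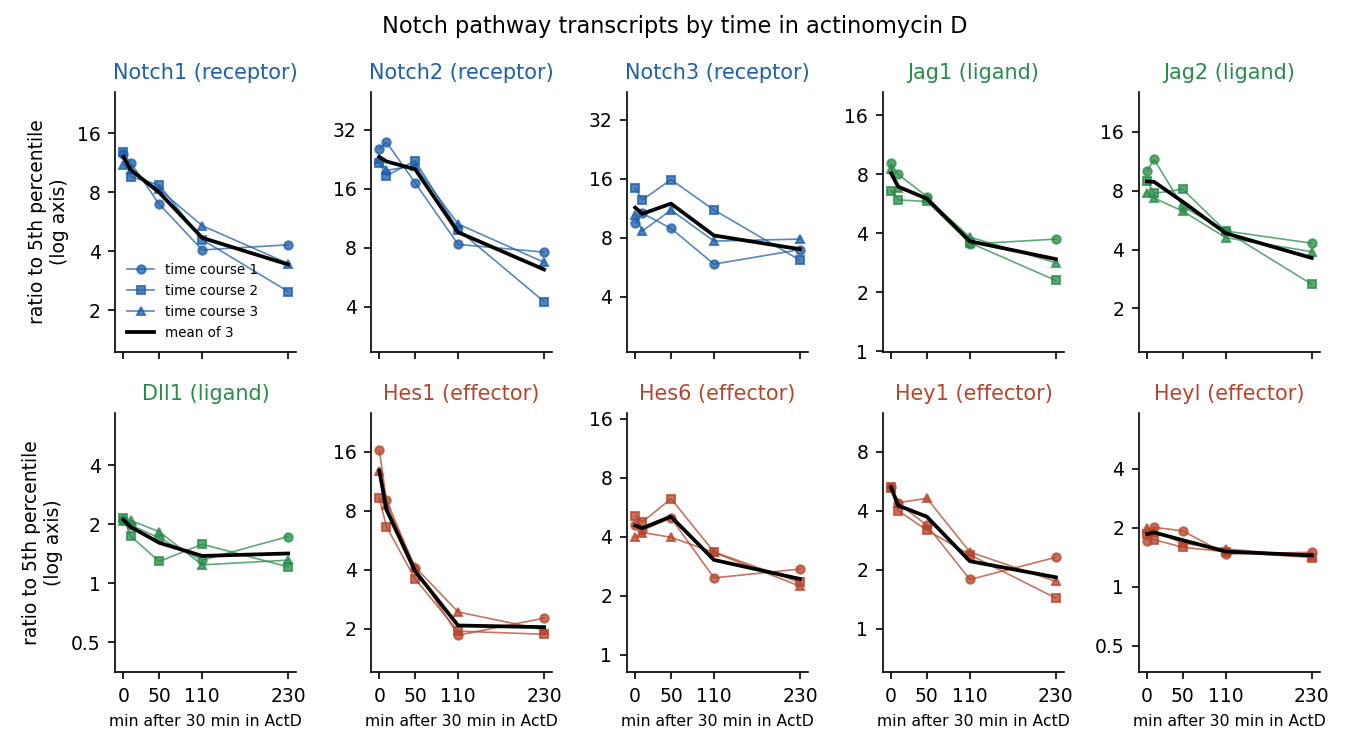
Ratio to the 5th percentile of the array (log axis, all panels spanning the same number of doublings) against time after 30 min in actinomycin D (min) for the 10 Notch pathway genes, with 1 line per replicate time course and the mean of 3 in black. Hes1 reached about its lowest level by 110 min (mean 2.07, against 12.8 at 0 min), while Notch3 still averaged 7.01 at 230 min, against 11.4 at 0 min.

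Among the receptors, Notch1 had ratios of 12.5, 12.8 and 11.04 at 0 min in time courses 1, 2 and 3, then 11.3, 9.60 and 10.3 at 10 min and 6.95, 8.71 and 8.26 at 50 min. It had 4.06, 4.58 and 5.40 at 110 min and 4.31, 2.49 and 3.46 at 230 min. The 50 min arrays were all below the 0 min arrays, the 110 min arrays all below the 50 min arrays, and the 230 and 110 min arrays overlapped. In the limma fit Notch1 at 230 min was lower than at 0 min by a log2 difference of -1.86 ± 0.18 (SE, adjusted p = 5.68e-06).

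Notch2, a close relative of Notch1, had 25.6, 21.7 and 22.7 at 0 min and 27.7, 18.7 and 19.9 at 10 min. At 50 min it had 17.2, 22.3 and 21.0, at 110 min 8.34, 9.92 and 10.6, and at 230 min 7.62, 4.26 and 6.76. Its 0, 10 and 50 min arrays overlapped, and the drop came between 50 and 110 min, where the groups separated (log2 difference -1.07 ± 0.20, adjusted p = 0.00408). The 230 min arrays were again all below the 110 min arrays, but that step did not pass the test (log2 difference -0.67 ± 0.20, adjusted p = 0.224). Against 0 min, Notch2 at 230 min differed by -1.95 ± 0.20 on the log2 scale (adjusted p = 9.05e-06).

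Notch3, which in mouse muscle is known as a receptor that restrains progenitor proliferation, had 9.49, 14.4 and 10.4 at 0 min and 10.7, 12.5 and 8.68 at 10 min. The ratios were 8.95, 15.9 and 11.1 at 50 min, 5.88, 11.1 and 7.71 at 110 min and 6.97, 6.16 and 7.89 at 230 min. Time course 2 was the highest of the 3 from 0 to 110 min and the lowest at 230 min. The 110 min arrays overlapped those of 0 min, and only at 230 min did all arrays lie below all those of 0 min (log2 difference -0.69 ± 0.19, adjusted p = 0.00839). Without time course 2 the 230 min difference was -0.42 and did not pass the test (adjusted p = 0.0858), and after each array was divided by its 75th percentile in place of its 5th it turned to 0.48 (adjusted p = 0.00556).

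Of the ligands, Jag1, which signals to Notch on adjacent cells, had 9.12, 6.61 and 8.57 at 0 min, 8.00, 5.93 and 6.85 at 10 min and 6.17, 5.82 and 6.05 at 50 min. It had 3.53, 3.58 and 3.83 at 110 min and 3.74, 2.30 and 2.83 at 230 min. Jag1 was lower at 10 min than at 0 min in 3 of 3 time courses, though the arrays overlapped, and the 50 and 0 min arrays did not overlap. The log2 difference at 230 min was -1.47 ± 0.13 (adjusted p = 3e-06).

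Jag2, the other Jagged ligand, averaged 8.91 ± 1.15 at 0 min, 8.86 ± 2.31 at 10 min, 7.01 ± 0.98 at 50 min, 4.84 ± 0.21 at 110 min and 3.62 ± 0.86 at 230 min (SD, n = 3). Its log2 difference at 230 min was -1.32 ± 0.18 (adjusted p = 6.83e-05), but the call was lost with the 75th percentile (-0.15, adjusted p = 0.357) and with quantile normalization (-0.15, adjusted p = 0.448). Dll1, a Delta-like ligand that is expressed by differentiating myogenic cells in the mouse, was dim from the start, at 2.10, 2.15 and 2.07 at 0 min. Its arrays held 1.70, 1.29 and 1.83 at 50 min and 1.73, 1.21 and 1.31 at 230 min, a log2 difference at 230 min of -0.59 ± 0.16 (adjusted p = 0.00617). The Dll1 values lay so near 1.00 that a further fall could hardly be seen, and without time course 3 its 230 min difference did not pass the test (-0.55, adjusted p = 0.0559). With the 75th percentile it turned to 0.58 (adjusted p = 0.00613).

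Among the effectors Hes1, the repressor that Notch induces in many tissues, had 16.4, 9.28 and 12.8 at 0 min and 9.05, 6.63 and 8.56 at 10 min. By 50 min it had 4.07, 3.58 and 4.12, by 110 min 1.85, 1.94 and 2.43, and at 230 min 2.26, 1.87 and 1.97. Every array of 10 min was below every array of 0 min, as in 5.98% of all probe sets. For Hes1 the same held for 50 against 10 min and for 110 against 50 min, whereas 230 and 110 min overlapped. In single time courses 24.9, 38.6 and 32.2% of the 0 min level were left at 50 min, and 13.8, 20.2 and 15.4% at 230 min. The array medians at 110 and 230 min lay between 1.44 and 1.92, so Hes1 was by then near the level of the middle probe set, and the flat part of its curve is close to the dim end of the scale.

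Hey1, a related repressor and direct Notch target, had 5.28, 5.29 and 5.23 at 0 min and 4.35, 3.99 and 4.39 at 10 min. It had 3.37, 3.18 and 4.62 at 50 min, 1.78, 2.38 and 2.46 at 110 min and 2.31, 1.43 and 1.74 at 230 min. As with Hes1, all 10 min arrays were below all 0 min arrays, which held for 5.98% of all probe sets. Neither gene passed the test at 10 min (Hey1 log2 difference -0.31 ± 0.18, adjusted p = 1). At 230 min the Hey1 difference was -1.56 ± 0.18 (adjusted p = 1.83e-05).

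Hes6, which unlike Hes1 is known to promote myogenic differentiation and to oppose Hes1, had 4.59, 5.13 and 3.99 at 0 min, 4.32, 4.76 and 4.21 at 10 min and 4.99, 6.26 and 3.98 at 50 min. It had 2.47, 3.35 and 3.33 at 110 min and 2.74, 2.34 and 2.24 at 230 min. Its first 3 times overlapped, all 110 min arrays were below all 50 min arrays, and the log2 difference at 230 min was -0.90 ± 0.15 (adjusted p = 0.000349), almost the expressed median of -0.91. With the 75th percentile it turned to 0.27 (adjusted p = 0.0857). Heyl, a Hey family repressor known as a Notch target in myogenic cells, averaged 1.45 ± 0.05 at 230 min, against 1.86 ± 0.14 at 0 min (SD, n = 3). Its log2 difference of -0.36 ± 0.10 at 230 min (adjusted p = 0.00947) did not pass the test without time course 2 (adjusted p = 0.0792) or without time course 3 (adjusted p = 0.147), and with the 75th percentile it turned to 0.81 (adjusted p = 0.000399).

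The order in which the transcripts moved was read from the contrasts of each time with 0 min, which share the 0 min arrays. At 10 min 0 of the 10 genes passed limma's adjusted threshold of 0.05, as did 0.0% of all probe sets, and Hes1 alone had an unadjusted p under 0.05 (0.000949), with a log2 difference of -0.64 ± 0.15. Of 12544 expressed probe sets, 10 were lower than Hes1 by this measure. At 50 min only Hes1 passed (log2 difference -1.67 ± 0.15, adjusted p = 0.00156), where 1.03% of all probe sets were called lower, and 5 expressed probe sets had a larger fall. With 2 time courses the Hes1 call at 50 min depended on which were kept, since it was lost without time course 2 (-1.82, adjusted p = 0.131) and without time course 3 (-1.69, adjusted p = 0.112). No probe set at all was called lower in either of those fits. At 50 min 5 of the 10 genes, Notch1, Jag1, Dll1, Hes1 and Hey1, had every array below every 0 min array, which was true of 13.1% of all probe sets.

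At 110 min all 10 genes were called lower than at 0 min, against 51.1% of all probe sets and 78.0% of the expressed ones. At 230 min all 10 were again called, against 68.8% of all and 91.9% of expressed probe sets, so these counts are near what the rest of the array did. The sizes set the genes apart more than the calls. At 110 min Hes1 differed from 0 min by -2.60 ± 0.15, Notch1 by -1.38 ± 0.18, Notch2 by -1.28 ± 0.20, Hey1 by -1.27 ± 0.18 and Jag1 by -1.14 ± 0.13 on the log2 scale, where the expressed median was -0.70. Hes1 then stayed at -2.62 ± 0.15 at 230 min, and its step from 110 to 230 min was -0.02 ± 0.15 (adjusted p = 0.974). Between 50 and 110 min 8 of the 10 genes fell, all but Dll1 and Heyl, against 35.8% of all probe sets and 66.4% of the expressed ones. With arrays centred on the median change of the expressed probe sets, a choice made after the data were seen, only Notch2 fell in that step (log2 difference -0.46 ± 0.14, adjusted p = 0.017), against 3.86% of all and 7.75% of expressed probe sets, and Heyl rose (0.42 ± 0.17, adjusted p = 0.0473), as did 38.3% of all. Between 110 and 230 min 0 of 10 fell, against 0.0119% of all probe sets (limma, with 4 of the 10 at an unadjusted p under 0.05).

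**Figure D2:**
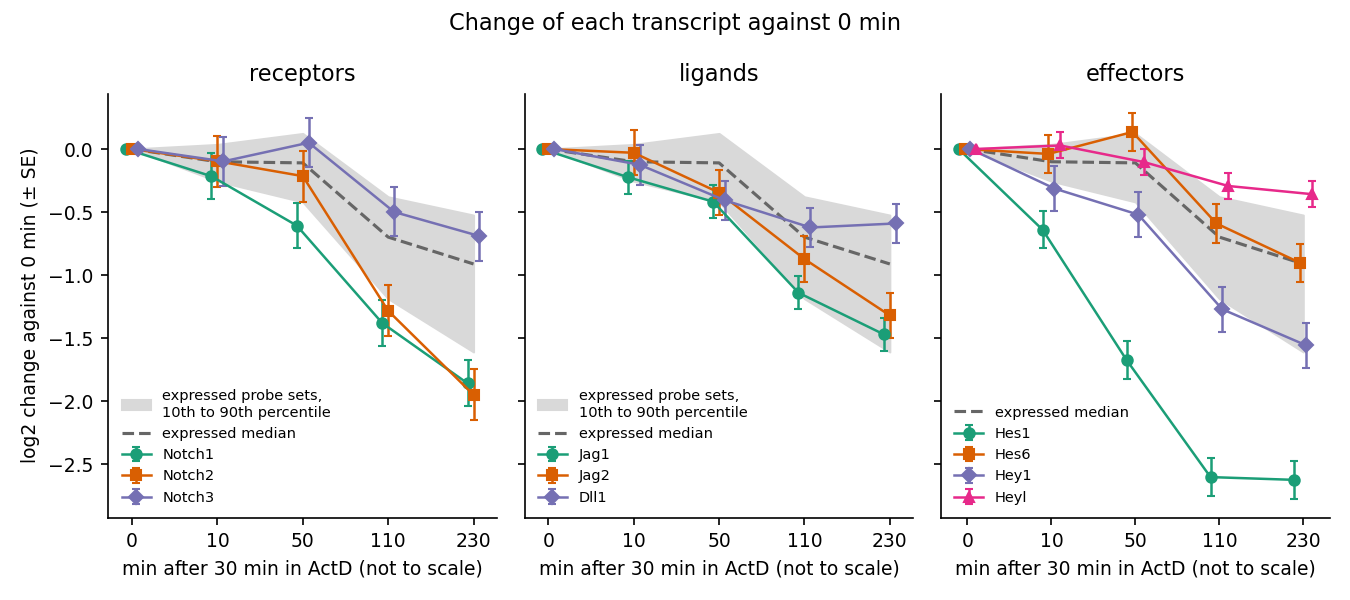
Log2 change against 0 min (± SE from the limma fit, 3 arrays per time) for receptors, ligands and effectors, by time after 30 min in actinomycin D (min, not to scale), with the median and the 10th to 90th percentile of the expressed probe sets in grey. Hes1 lay below the grey band from 10 min on, at -1.67 by 50 min, and Notch3 stayed inside it (-0.69 at 230 min).

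A straight line through the log2 ratios in time, with the time course as a block, gave a slope for each gene. All 10 slopes were negative and passed the test, as did 75.8% of all probe sets and 96.3% of the expressed ones in that direction. They were -0.63 ± 0.11 log2 per hr for Hes1, -0.54 ± 0.05 for Notch2, -0.48 ± 0.05 for Notch1, -0.39 ± 0.05 for Hey1, -0.38 ± 0.04 for Jag1 and -0.36 ± 0.04 for Jag2. The slope of Hes6 was -0.26 ± 0.04, that of Notch3 -0.19 ± 0.05, that of Dll1 -0.15 ± 0.04 and that of Heyl -0.10 ± 0.02 log2 per hr. Because 1 value scales a whole array, these slopes carry the scaling of the arrays, and those of Notch3, Dll1, Hes6 and Heyl turned positive when the arrays were divided by their 75th percentile. The 230 min differences that kept their call under that scaling were smaller too, at -1.45 for Hes1, -0.78 for Notch2, -0.69 for Notch1, -0.39 for Hey1 and -0.30 for Jag1 on the log2 scale.

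The place of a gene among the expressed probe sets is the same whatever single value divides an array. Hes1 had a steeper slope than all but 1.5% of the 12544 expressed probe sets, Notch2 than all but 3.9% and Notch1 than all but 6.2%. For Hey1 the share that was steeper was 14.5%, for Jag1 16.2%, for Jag2 20.0%, for Hes6 45.4% and for Notch3 74.7%. The median slope of the expressed probe sets was -0.25 log2 per hr, with the 10th percentile at -0.43 and the 90th at -0.15.

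Slopes were then taken relative to each array's median over the expressed probe sets. That median is almost the array's 75th percentile (9.84 and 9.81 in time course 1 at 0 min). These slopes therefore repeat the 75th percentile scaling and are not a separate check. Notch1 (-0.17 ± 0.03 log2 per hr, adjusted p = 0.000152), Notch2 (-0.22 ± 0.03, adjusted p = 4.42e-06), Hes1 (-0.32 ± 0.09, adjusted p = 0.00218) and Hey1 (-0.08 ± 0.04, adjusted p = 0.0497) fell by this measure, 4 of 10 genes, against 7.54% of all and 15.1% of expressed probe sets. Notch3 (0.13 ± 0.03, adjusted p = 0.0011), Dll1 (0.17 ± 0.04, adjusted p = 0.0012) and Heyl (0.21 ± 0.04, adjusted p = 7.48e-05) rose relative to the array median. So did 74.2% of all probe sets and 48.8% of the expressed ones, to which Notch3 belongs. Jag1 (-0.06 ± 0.03, adjusted p = 0.0605), Jag2 (-0.04 ± 0.03, adjusted p = 0.295) and Hes6 (0.06 ± 0.03, adjusted p = 0.107) were not called. The Hey1 call was lost without time course 2 (adjusted p = 0.0808) and without time course 3 (-0.04, adjusted p = 0.436).

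The median of an array is not the path of the median gene: on this relative scale the expressed probe sets still had a median slope of 0.07. When each array was centred instead on the median change of the expressed probe sets from their own means, their median slope was 0.01. Notch1 (-0.22 ± 0.03), Notch2 (-0.28 ± 0.03), Jag1 (-0.12 ± 0.03), Jag2 (-0.10 ± 0.03), Hes1 (-0.38 ± 0.08) and Hey1 (-0.14 ± 0.04 log2 per hr) then fell, 6 of 10, against 12.3% of all and 24.7% of expressed probe sets, with adjusted p between 9.22e-07 and 0.0128. Hes6 had a slope of 0.00 ± 0.03 (adjusted p = 0.979) and Notch3 of 0.07 ± 0.03 (adjusted p = 0.0514), and Dll1 (0.11 ± 0.04, adjusted p = 0.02) and Heyl (0.16 ± 0.04, adjusted p = 0.00125) rose, as did 59.7% of all probe sets. On the same scale Hes1 at 50 min differed from 0 min by -1.56 ± 0.16 (adjusted p = 1.36e-05), and the call went to 0.941% of all probe sets.

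Half-lives were fitted as a first-order exponential on the linear ratios, in each time course on its own. Hes1 had half-lives of 22.2, 46.8 and 36.5 min and averaged 35.2 ± 12.4 min (SD, n = 3), and 5 of the 12544 expressed probe sets had a shorter mean. Notch1 averaged 102 ± 18.7 min, Notch2 111 ± 23.3 min, Hey1 127 ± 13.3 min, Jag1 136 ± 12.1 min and Jag2 159 ± 40.6 min. The median over the expressed probe sets was 249 min, or 4.15 hr.

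Hes6 averaged 244 ± 33.2 min, close to that median, and Notch3 had 317, 231 and 599 min, a mean of 382 ± 193 min. The fitted means of Dll1 (413 ± 198 min) and Heyl (559 ± 84.9 min) come from curves near the dim end of the scale. From shortest to longest the order was Hes1, Notch1, Notch2, Hey1, Jag1, Jag2, Hes6, Notch3, Dll1 and Heyl. The slowest Hes1 fit was shorter than the fastest fit of any other gene of the 10. Notch1, Notch2 and Hey1 overlapped over the 3 time courses, as did Hey1, Jag1 and Jag2, so their order is within the spread. No test was made between genes here, since 3 time courses against 3 cannot give an exact permutation p below 0.10.

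A half-life counted as reliable where the decay rate had a p under 0.05 and a 95% profile interval spanning less than 2 times the estimate, in at least 2 of 3 time courses. Notch1, Jag1 and Jag2 met this, 3 of the 10 genes, against 11.2% of the expressed probe sets. Hes1 had no reliable fit in any time course, with intervals of 4.24 to 108 min, 12.6 to 181 min and 9.0 to 134 min. Its curve flattens after 110 min, whereas the exponential goes on to 0. Without the 230 min arrays Hes1 still had no reliable fit (32.6 ± 9.82 min), and the cause was not tested. With a curve that decays to a floor fixed at 1.00 the Hes1 half-life was 24.0 ± 7.60 min and met the criteria in 2 of 3 time courses. The same curve gave 76.3 min for Hey1, 83.2 min for Notch1, 124 min for Dll1, 129 min for Jag2, 176 min for Hes6, 201 min for Heyl and 338 min for Notch3, so that the order after Hes1 changed. With a straight line through the log2 ratios the Hes1 half-life was 95.1 ± 8.71 min, which spreads the early loss over the flat part. The slowly falling genes were poorly bounded, and all 3 Notch3 intervals had no upper limit.

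**Figure D3:**
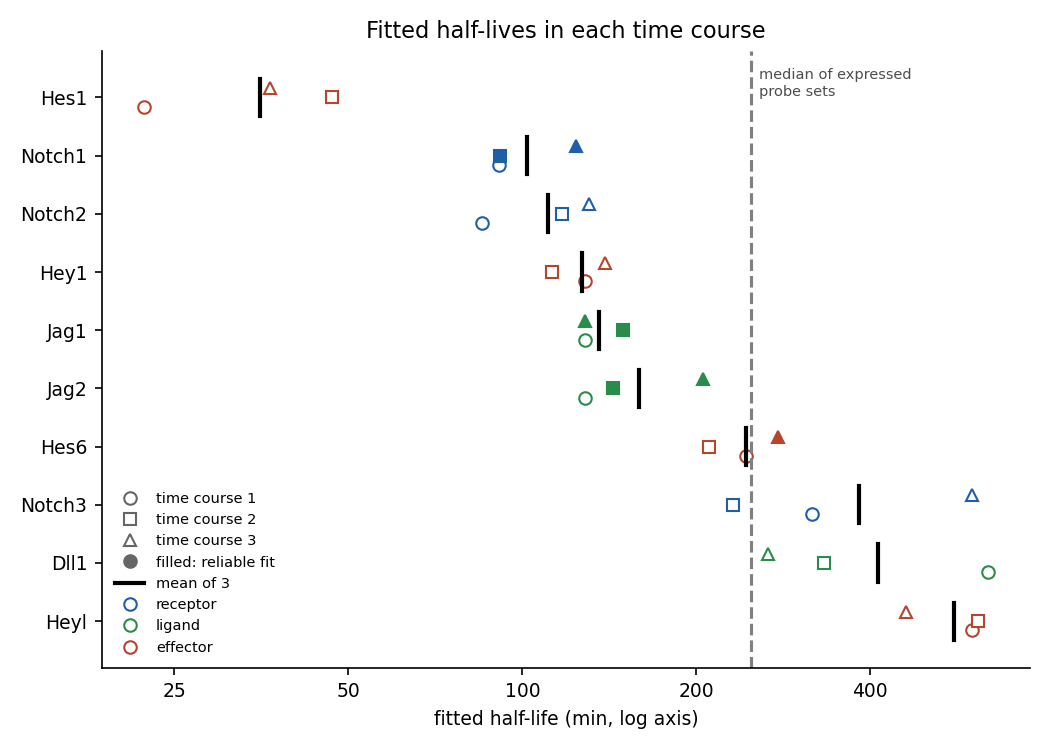
Fitted half-life (min, log axis) of each gene in each of the 3 time courses, filled where the fit met the reliability criteria, with the mean of 3 as a black bar and the median of the expressed probe sets (249 min) as a dashed line. Hes1 stands apart at a mean of 35.2 min, and those of Notch1, Notch2, Hey1, Jag1 and Jag2 lie between 102 and 159 min.

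The absolute half-lives move with the scaling of the arrays. After each array was divided by its median the mean was 55.2 min for Hes1, 180 min for Notch1, 173 min for Notch2, 265 min for Hey1, 279 min for Jag1 and 377 min for Jag2. After the 75th percentile it was 94.3 min for Hes1, 353 min for Notch1, 278 min for Notch2, 1469 ± 1014 min for Jag1 and 2389 ± 3231 min for Hey1 (SD, n = 3), and 1070 min for Jag2 in the 2 time courses with a fit. Notch3, Dll1, Hes6 and Heyl had no decay to fit under the 75th percentile in any time course. Hes1 had the shortest mean of the 10 under each of these scalings, and the mean of Notch2 was then shorter than that of Notch1.

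Differences between members do not depend on array scaling when the ratio is taken within an array. All 7 pairs within a role among the 8 expressed genes were compared, by the slope in time of their log2 ratio and an exact two-sided permutation test of the times within each time course, with Benjamini-Hochberg adjustment over the 7. Notch1 lost ground to Notch3 by a slope of -0.29 ± 0.05 log2 per hr (SD over 3 time courses, adjusted p = 4.7e-05), and Notch2 to Notch3 by -0.35 ± 0.03 (adjusted p = 2e-05), each in 3 of 3 time courses. The log2 ratio of Notch2 to Notch3 was 0.13, -0.53 and -0.22 at 230 min, against 1.43, 0.60 and 1.12 at 0 min. Notch1 against Notch2 did not pass the test (0.05 ± 0.04, above 0 in 3 of 3 time courses, adjusted p = 0.21), nor did Jag1 against Jag2 (-0.03 ± 0.10, below 0 in 1 of 3, adjusted p = 0.49).

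Among the effectors, Hes1 fell faster than Hes6 by a slope of -0.37 ± 0.11 (adjusted p = 0.037) and faster than Hey1 by -0.24 ± 0.12 (adjusted p = 0.047), each in 3 of 3 time courses. Hes6 against Hey1 did not pass the test (0.13 ± 0.05, above 0 in 3 of 3, adjusted p = 0.055). The Hes1 ratio to Hes6 did not follow a straight line: its log2 averaged 1.46 ± 0.53 at 0 min, 0.86 ± 0.33 at 10 min, -0.35 ± 0.43 at 50 min, -0.55 ± 0.20 at 110 min and -0.26 ± 0.07 at 230 min (SD, n = 3). When the 5th percentile was first subtracted from every ratio, Hes1 and Hey1 no longer passed (-0.24 ± 0.18, adjusted p = 0.1), Hes6 and Hey1 did (0.25 ± 0.09, adjusted p = 0.016), and the receptor and ligand pairs kept their calls.

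**Figure D4:**
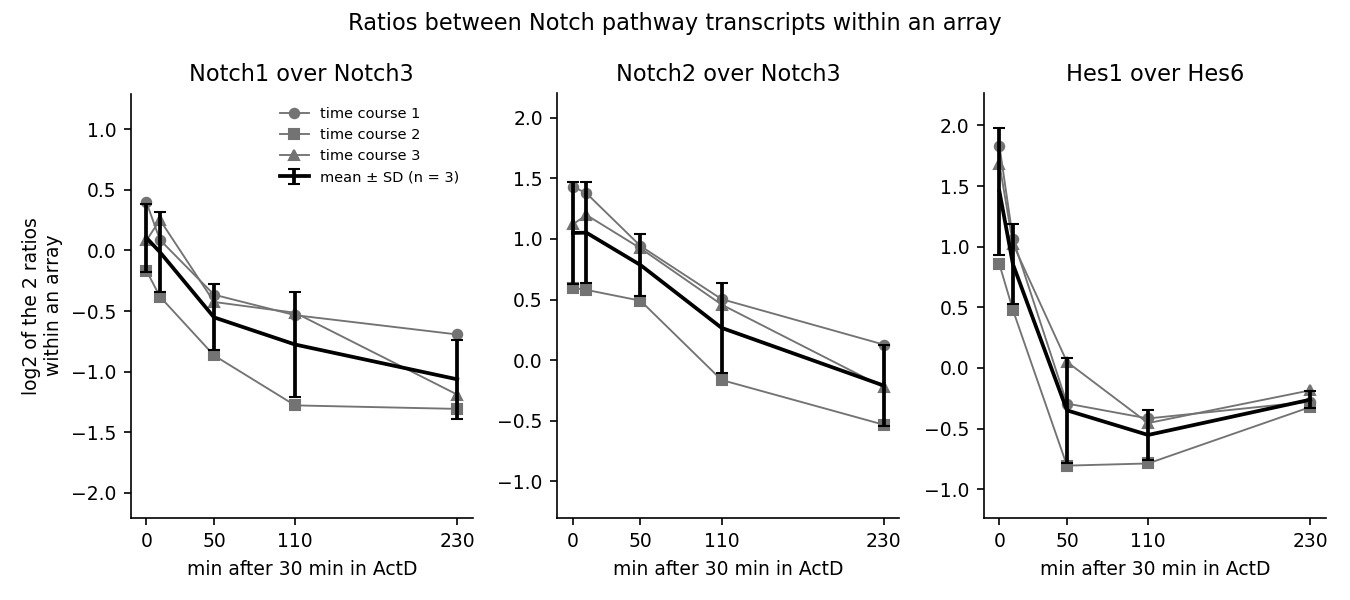
Log2 of the ratio of a pair of transcripts within an array against time after 30 min in actinomycin D (min), for Notch1 over Notch3, Notch2 over Notch3 and Hes1 over Hes6, with 1 grey line per time course and the mean ± SD (n = 3) in black. The ratios to Notch3 fell in every time course up to 230 min (slopes -0.29 and -0.35 log2 per hr), and Hes1 over Hes6 had most of its drop by 50 min.

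The rest of the pathway was read from a list of further Notch genes, 52 of them analysed here and 43 expressed. Of the expressed ones 42 fell in the trend with time and 0 rose, where 96.3% of expressed probe sets fell. Their median slope was -0.23 log2 per hr. Relative to the array median 10 fell faster, 22 slower and 11 were not called, where 15.1% of the expressed probe sets were faster and 48.8% slower. With arrays centred on the median change the counts were 14 faster and 11 slower, where 24.7% of the expressed probe sets were faster and 22.8% slower.

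The steepest relative slopes of the list were those of 2 further basic helix-loop-helix repressors, Bhlhe41 (-0.34 ± 0.05 log2 per hr, adjusted p = 3.2e-06) and Bhlhe40 (-0.31 ± 0.07, adjusted p = 0.00056), which are beside Hes1 (-0.32 ± 0.09) in that measure. Bhlhe41 had 1.96, 1.69 and 2.50 at 230 min, against 10.5, 11.5 and 10.6 at 0 min, and Bhlhe40 had 1.54, 1.21 and 1.86 at 230 min, against 8.56, 7.63 and 8.44 at 0 min. Next were Ep300 (-0.26 ± 0.04, adjusted p = 6.4e-06), a histone acetyltransferase recruited by the Notch intracellular domain complex, and Spen (-0.22 ± 0.03, adjusted p = 5.5e-06), a corepressor that binds Rbpj. Rbpj itself was not called (0.04 ± 0.03, adjusted p = 0.14).

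The shallowest were Dtx1 (0.22 ± 0.04, adjusted p = 4.8e-05), an E3 ubiquitin ligase of the Deltex family, Tle5 (0.20 ± 0.03, adjusted p = 5.9e-06), a short Groucho family protein, Pofut1 (0.17 ± 0.03, adjusted p = 5.8e-05), which adds fucose to Notch, and Itch (0.16 ± 0.03, adjusted p = 0.00024), a ligase that ubiquitylates Notch. Tle5 was the 1 expressed gene of the list without a called fall (slope -0.12 ± 0.05, adjusted p = 0.058). Of the proteases and γ-secretase subunits that process and cut the receptor, 8 of 8 fell in the trend, where 96.3% of expressed probe sets did (median slope -0.17 log2 per hr, relative 0.14). Relative to the array median 7 of them were slower and 0 faster, against 48.8% slower among expressed probe sets. With arrays centred on the median change 5 were slower, against 22.8%. The exception to the first count was Furin, a convertase that processes the Notch precursor (slope -0.32 ± 0.05, relative -0.004 ± 0.03, adjusted p = 0.91). Adam10, the main sheddase of Notch, had 14.4, 9.08 and 13.1 at 230 min, against 19.2, 19.1 and 17.5 at 0 min. Of the nuclear complex, 4 of 10 were faster and 2 slower (5 and 2 with the median change). Of the class listed as other targets, 2 of 4 were faster and 1 slower (2 and 0). The 2 faster were Bhlhe41 and Bhlhe40, and whether Notch acts on these 2 genes was not tested. Hes7 was slower (0.14 ± 0.05, adjusted p = 0.0083) and Hes5 was not called (0.09 ± 0.04, adjusted p = 0.055). Among expressed probe sets 15.1% were faster and 48.8% slower (24.7% and 22.8% with the median change).

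**Figure D5:**
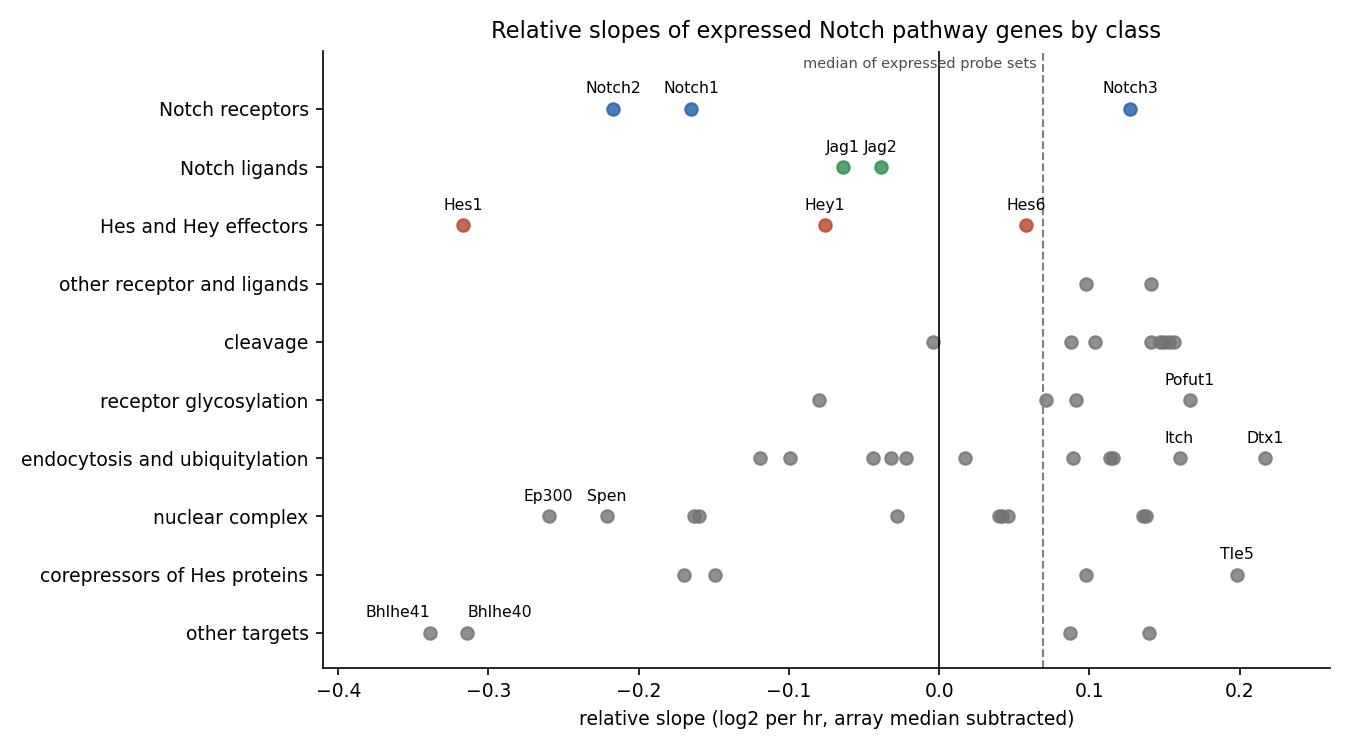
Relative slope (log2 per hr, the median of expressed probe sets subtracted from each array) of the 8 expressed genes of the 10, by role in colour, and of the 43 other expressed Notch pathway genes by class in grey, with the median of all expressed probe sets (0.07) as a dashed line. Hes1 (-0.32) lies beside Bhlhe41 and Bhlhe40 at the steep end, and 7 of the 8 genes for receptor cleavage lie between 0.09 and 0.16.

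The genes most like each transcript in its course over the 15 arrays, after the array median was subtracted, were named by Pearson's r among 9878 other expressed genes, as a description only, since all 15 points share the same time courses and scaling. Notch1 was closest to Fem1c, a substrate receptor of cullin ubiquitin ligases (r = 0.942), and to Gucd1 (r = 0.941). Notch2 was closest to Tle3, a Groucho corepressor that is also in the pathway list (r = 0.966), and to Sec24b, a COPII coat protein (r = 0.963). Notch3 was closest to Sema3e, a secreted semaphorin (r = 0.963), and Ebpl (r = 0.962).

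Hes1 was closest to Mepce, the capping enzyme of 7SK RNA (r = 0.968), and Smg8, a factor of nonsense-mediated decay (r = 0.966). Hes6 was closest to Plcd1, a phospholipase C (r = 0.911), and Tada3, an adaptor of histone acetyltransferase complexes (r = 0.911), and Hey1 to the transcription factor Foxc1 (r = 0.862) and Mb21d2 (r = 0.857). Of the ligands, Jag1 was closest to Sprtn (r = 0.880) and the chromatin remodeller Chd7 (r = 0.879). Jag2 had the lowest values of all, with the junction protein Afdn (r = 0.786) and Sipa1 (r = 0.768).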

How the data were processed

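RNA from C2C12 (LKO1) myoblasts in actinomycin D was hybridised to 15 Affymetrix Mouse Gene 1.0 ST arrays, 5 times in 3 replicate time courses. The deposited values are ratios on a linear scale: the authors set the 5th percentile of every array's probe sets to 1.00. How probes were summarised and corrected for background, and with which software, is not given in the sources used here. The values hold no counts or detection p-values, and the number of arrays limits the precision. Whether the 3 time courses were separate cultures is not stated beyond their being replicates, so the p-values may not cover a spread between cultures. Those of limma rest on the array scatter left after the time and time course terms, with variances partly pooled over probe sets. Those of the pairs come from permuting times within each time course.

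The platform annotation gave 1 symbol for 21044 of 25175 probe sets, more than 1 for 1492 and none for 2639. A table of mouse assembly GRCm38.p6 supplied current names for 20959 through their gene numbers. The 10 genes were those with the given symbols. The genes and lists were chosen with earlier results of these data known. All 10 genes are named; of the pathway list the 4 steepest and 4 shallowest relative slopes among expressed genes and those that describe a class are named, and for each expressed gene the 2 with the highest Pearson r.

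Log2 ratios of all probe sets were fitted with limma 3.58.1 in R 4.3.3 (lmFit, eBayes, replicate time course as a block, Benjamini-Hochberg at 0.05 over all 25175), as a slope in hours, as the same slope after subtracting each array's median of expressed probe sets, and as each time against 0 min. A replicate number marks a time course, fitted separately in the study's methods. Deviations from the time means correlated over 0.1 in 29 of 30 same-numbered array pairs (median 0.362), against 14 of 60 other pairs (median -0.216). Half-lives, A·exp(-kt) by least squares, used scipy 1.17.1, numpy 2.4.6 and pandas 2.3.3 in Python 3.11.15; plots used matplotlib 3.10.9. The fit was tested on simulated data over 25175 probe sets, where it recovered 30% of 50 slopes of -0.1, 84% of 50 slopes of -0.25 log2 per hr and 100% of 50 of -0.5, with 8 false calls. Most simulated probe sets had no slope and their noise was independent, whereas here whole arrays shifted together. These rates therefore do not carry over to the data. Other scalings, filters, variance models, times, decay models and each time course left out were tried, and the contrasts of neighbouring times and the median change centring were added after the data were seen.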

Additional observations from a re-analysis of the deposited data

How the results depend on the processing

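The fall of Hes1, Notch1, Notch2 and Hey1 kept its direction and its call under every scaling tried, in the trend and at 230 min, and Jag1 and Jag2 kept their direction but lost the trend call with the 75th percentile (adjusted p = 0.0585 and 0.289), Jag2 also with quantile normalization (adjusted p = 0.369). The other 4 genes changed sign with the scaling, and values in brackets below are all their estimates above 0, called or not. With the 75th percentile the called rises in the trend were Notch3, Dll1 and Heyl, while Hes6 was not called (adjusted p = 0.11). The other called rises in the trend were Heyl with the array median, Notch3 with quantile normalization, and Dll1 and Heyl with the median change. Scaled to the 75th percentile, 4 genes fell and 3 rose in the trend, 4 fell at 110 min and 5 at 230 min. The trend was then 0.13 for Notch3, 0.17 for Dll1, 0.057 for Hes6 and 0.21 for Heyl (log2 per hr), and the 230 min difference 0.48 for Notch3, 0.58 for Dll1, 0.27 for Hes6 and 0.81 for Heyl (log2). With the array median, 6 fell and 1 rose in the trend (Dll1 0.036, Heyl 0.078), and 5 fell at 110 min and 6 at 230 min (Notch3 0.018, Dll1 0.12, Heyl 0.35). With quantile normalization, 5 fell and 1 rose in the trend (Notch3 0.11, Hes6 0.044, Heyl 0.037), 2 fell at 50 min, 4 at 110 min and 5 at 230 min (Notch3 0.39, Hes6 0.22, Heyl 0.19). With arrays centred on the median change, added after the data were seen, 6 fell and 2 rose in the trend (Notch3 0.069, Dll1 0.11, Heyl 0.16), 5 fell at 110 min and 6 at 230 min (Notch3 0.26, Dll1 0.36, Hes6 0.05, Heyl 0.60). The median slope of the expressed probe sets was itself -0.25 log2 per hr as deposited.

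Relative to the array median, 3 genes rose, but 1 among expressed probe sets only, where Dll1 and Heyl are not tested, and 1 against the median of all probe sets, where Notch3 was at -0.009 and Hes6 at -0.079; Hes6 was at -0.001 with the median change. Without the 110 min array of time course 1 and the 230 min array of time course 2, 2 genes were called at 50 min. Leaving out 1 time course gave 9 to 10 genes that fell in the trend, 3 to 4 that fell in the relative trend, 0 to 1 at 50 min, 7 to 9 at 110 min and 8 to 10 at 230 min, with the lost calls at 110 min in Notch3, Dll1, Hes6 and Heyl. The number of genes with a reliable half-life was 0 under the 75th percentile, the median change centring, a Wald interval or without the 0 min arrays. It was 1 under the array median or without the 230 min arrays, and 5 with a straight line through the log2 ratios. The cause of these differences was not tested. With 1 time course left out the number was 3 without time course 1 and 0 without time course 2 or 3. This follows from the rule, since each time course is fitted alone and 2 reliable fits were still required. Those of Notch1, Jag1 and Jag2 were all in time courses 2 and 3. Without the replicate block 10 genes fell in the trend, 3 fell in the relative trend, where Hey1 was lost (adjusted p = 0.0599), and 9 fell at 110 min; the block changed no other count. Each gene had 1 probe set, so a mean over probe sets gave no value. With 3 arrays per time and no detection values, transcripts near 1.00, such as Dll1, Heyl and late Hes1, have little room to fall.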
